A study of Sus scrofa with 22 samples.

Results

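Busulfan given with cyclophosphamide (BUCY) was compared with no treatment in the small intestine of piglets, by gene expression on 10 of the 22 arrays of the study. The members are the 5 piglets labelled as BUCY treated and the 5 labelled as untreated piglets of the same experiment, and the other 12 piglets belong to a doxorubicin (DOX) experiment with its own 6 untreated animals. All were crossbred, specific-pathogen-free piglets of Large White and Danish Landrace parentage, called 3 days old by the labels, and chemotherapy was infused through a catheter in the jugular vein. RNA of the piglet carried Cy5 and a pool of all samples carried Cy3 on each array, so every value below is a log2 ratio of piglet to pool unless a difference is named. No source used here gives the dose, the interval to sampling or the stretch of small intestine.

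Busulfan and cyclophosphamide both add alkyl groups to DNA, and the pair is used to clear the bone marrow before stem cell transplantation. Dividing crypt cells and lymphocytes are sensitive to such drugs. The small-intestinal lining renews itself from the crypts, carries digestive enzymes on its brush border, and holds many T cells among and beneath its epithelial cells. It also releases proteins that bind or kill microbes, among them DMBT1 and the collectin SFTPD (surfactant protein D), which the title of the study names.

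Between 59.7% and 72.0% of probes stood well above background on the 10 arrays. The share was 65.9 ± 4.10% (SD, n = 5) in treated and 69.5 ± 3.11% (SD, n = 5) in untreated piglets (exact permutation test, two-sided, p = 0.167). The median Cy5 signal was 88 to 210 units, with an exact permutation p of 0.214 between the groups. Treated piglets 2 and 3 stood apart from the rest: on the first principal component, with 52.1% of the variance, they lay at 81.2 and 110.4, and the other 8 arrays at -45.4 to 14.7. The lowest share above background and the lowest signal, 59.7% and 88 units, belonged to treated piglet 3. Treated piglet 2, at 66.3% and 135 units, lay within the range of the other arrays. Their ratios correlated with each other at r = 0.78 over all probes, and pairs of treated and untreated arrays ranged from -0.17 to 0.58. Over all 22 arrays the lowest correlation of a pair was -0.41, and the direction of the ratios rests on the dyes that the labels state. The 10 arrays lay on 5 slides scanned on 3 days, 3 slides held both groups, and results that rest on treated piglets 2 and 3 are given with and without them. Nothing in the labels ties piglets to litters, so the p-values measure the spread between these animals only.

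Of 43603 probes, 1012 (2.32%) were called, meaning an adjusted p under 0.05 in a limma fit of the 10 arrays with Benjamini-Hochberg adjustment over all probes. Higher in treated piglets were 487 probes (1.12%) and lower were 525 (1.20%). The change was over 2-fold in 197 of the higher and 260 of the lower probes, and the groups did not overlap in 977 of the 1012 and in 5.57% of all probes. A gene symbol could be given to 336 of the called probes. By its brightest probe, 141 of 3029 genes with a symbol (4.66%) were called, 85 higher (2.81%) and 56 lower (1.85%), and the gene lists below are to be read against these shares. The lists were drawn up with earlier results of these data known, so that comparison only describes and tests no list. An unadjusted p under 0.05 was found for 19.9% of all probes and 30.8% of the genes with a symbol, and counts by unadjusted p are to be read against these. The median log2 change over all probes was 0.0043. Without treated piglets 2 and 3, 408 probes were called, 324 of them among the 1012. All 1012 kept their direction, which leaving out arrays could not reverse in the 977 without overlap. With the slide as a block, which takes out treated piglet 2 and untreated piglets 1 and 2 because their slides held 1 group, 336 probes were called (199 of the 1012), and with the scan day as a block 513 (437 of the 1012). The count depended on single animals, from 239 without untreated piglet 2 to 2617 without treated piglet 1. With each array only centred on its median, in place of the intensity-dependent correction in the deposited values, 51 probes were called higher and 102 lower.

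REG3G and DMBT1, secreted defence proteins, had the largest increases of the called genes that passed the filters of the naming rule. REG3G, a lectin released by epithelial cells that kills Gram-positive bacteria, stood at 2.27, 1.61, 1.91, 0.35 and 2.16 in treated piglets 1 to 5 and at -2.73, -2.19, -2.29, -2.40 and -2.66 in untreated piglets 1 to 5. Every treated piglet was above every untreated one, treated piglet 4 was the lowest of its group, and the groups differed 17.3-fold (log2 change 4.11, SE 0.32, adjusted p = 0.00191). DMBT1, a large mucin-like scavenger receptor that binds bacteria, stood at 1.22, 0.66, -0.16, 0.55 and 0.93 in treated and -3.02, -3.44, -2.56, -2.35 and -1.64 in untreated piglets. Here treated piglet 3 was lowest of its group but still above the untreated values, and the difference was 9.46-fold (log2 change 3.24, SE 0.34, adjusted p = 0.00746). SFTPD, which agglutinates microbes by their sugars, stood at 0.55, -1.10, -0.36, 0.086 and 0.64 in treated and -1.25, -1.71, -2.46, -1.90 and -1.63 in untreated piglets. Its treated values ran close to the untreated range in piglet 2, and the mean rose 3.37-fold (log2 change 1.75, SE 0.34, adjusted p = 0.0310). PGLYRP2, an amidase that cleaves bacterial peptidoglycan, rose by 1.29 on the log2 scale (SE 0.25, adjusted p = 0.0347).

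Those 4 were the called members among 26 measured genes of secreted mucosal defence, none was called lower, and the list's median log2 change was 0.17 (-0.00013 without treated piglets 2 and 3). The antimicrobial genes LYZ (lysozyme; log2 change 1.11, adjusted p = 0.481) and LCN2 (lipocalin 2, which captures bacterial iron carriers; -0.26, adjusted p = 0.607) were not called, nor was DUOX2, an epithelial oxidase whose treated values had an SD of 2.82; these 3 were picked after their values were seen. Without treated piglets 2 and 3 the same 4 genes were called, SFTPD at a log2 change of 2.21 (adjusted p = 0.0152) and DMBT1 at 3.50 (adjusted p = 0.0144). Of REG3G, DMBT1, SFTPD and PGLYRP2, all but PGLYRP2 were called with the slide as a block, REG3G and DMBT1 with the scan day as a block and REG3G with median centring (adjusted p 0.0612 to 0.335 where not called). Within the 3 slides that held both groups the difference ran from 3.53 to 4.82 for REG3G, from 2.54 to 3.79 for DMBT1 and from 1.77 to 3.0 for SFTPD. Arrays were also left out singly, and REG3G and DMBT1 were called each time. SFTPD lost its call without treated 4 or 5 or untreated 2 to 5, and PGLYRP2 without treated 4 or 5 or untreated 1 to 5 (adjusted p 0.0507 to 0.0832 over these losses).

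**Figure D1:**
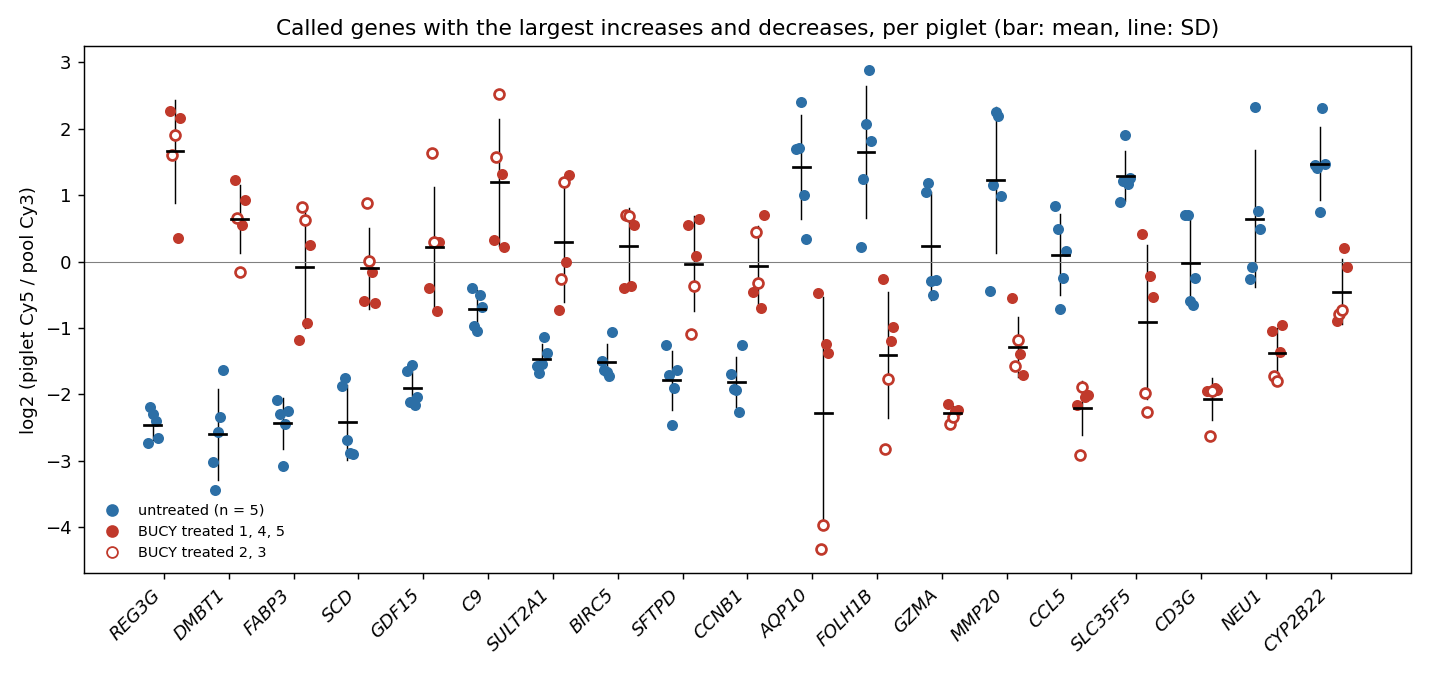
Log2 ratio of piglet to pool (vertical axis) for the 10 called genes with the largest increase and 9 of the 10 with the largest decrease whose groups did not overlap. Genes were ranked under the filters of the naming rule. Points are piglets (blue untreated, red treated, open red treated piglets 2 and 3), bars are means and lines SDs, n = 5 a group. The open circles lie lowest for AQP10 and SLC35F5. GZMA, with signals near background, is tightly grouped in the treated piglets, and CCL5 and CD3G are so apart from a lower treated piglet 2.

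Of 26 measured genes of T and NK cells, 13 fell and none rose, 23 had a negative change, and the median log2 change was -0.83. GZMA, a granule protease of cytotoxic lymphocytes, stood at -2.15, -2.44, -2.34, -2.25 and -2.23 in treated and 1.04, 1.19, -0.30, -0.50 and -0.28 in untreated piglets. The treated values lay within a narrow band below all untreated ones, 5.70-fold lower (log2 change -2.51, SE 0.33, adjusted p = 0.00975). Signals of GZMA near background limit the precision of the band and the fold. CCL5, a chemokine made by activated T cells, stood at -2.16, -2.91, -1.89, -2.04 and -2.01 against 0.84, 0.49, -0.72, -0.25 and 0.16. The treated mean was 4.95-fold lower (SE of the log2 change 0.29, adjusted p = 0.00975), with treated piglet 2 lowest. CD3G, a chain of the T cell receptor complex, stood at -1.95, -2.63, -1.95, -1.90 and -1.93 against 0.70, 0.70, -0.60, -0.66 and -0.25, and its untreated values fell into a higher pair (piglets 1 and 2) and 3 lower ones. Untreated piglets 1 and 2 shared a slide that held no BUCY treated piglet, and were also the highest for GZMA and CCL5. CD3G was 4.14-fold lower (log2 change -2.05, adjusted p = 0.0135).

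CD3E, another chain of that complex, was 2.68-fold lower (adjusted p = 0.00975). CD2, an adhesion receptor of T and NK cells, was 2.15-fold lower (adjusted p = 0.00926), and CD96, which binds nectin-like ligands, 2.39-fold lower (adjusted p = 0.00883). Signals near background limit the precision for CD2 too. The remaining called members, named to complete the list after their values were seen, were LCK, CD8A, CD247, GZMB, KLRK1, XCL1 and IL2RG, with log2 changes from -1.79 (XCL1) to -0.42 (IL2RG). The T helper co-receptor CD4 was not called (log2 change -0.43, adjusted p = 0.249), and neither was CD3D (-0.34, adjusted p = 0.146). Over the arrays the list's mean ratio was -0.88, -1.12, -0.83, -0.81 and -0.81 in treated and 0.24, 0.22, -0.22, -0.10 and 0.0079 in untreated piglets 1 to 5, without overlap, and treated piglets 2 and 3 were not apart from the other 3 as a pair. In bulk tissue, fewer cells of a type and less RNA per cell cannot be told apart.

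The median change within the 3 slides with both groups ran from -0.83 to -0.64, 7 members stayed called with the slide as a block and 13 with the scan day as a block, and without treated piglets 2 and 3 the list had 12 called lower, among them ICOS and GZMH, which were not called with all arrays. Of the 13 called members, GZMA, CCL5, CD3G, CD3E, CD2, CD96 and LCK were called with the slide as a block, all with the scan day as a block and all but KLRK1 and IL2RG with median centring, and all but CD247, KLRK1 and IL2RG without treated piglets 2 and 3 (adjusted p 0.0566 to 0.186 where not called). GZMA, CCL5, CD3G, CD3E, CD2, CD96, LCK, CD8A and GZMB were called with any 1 array left out. CD247 lost its call without treated 2 or untreated 1 or 2, and KLRK1 and IL2RG without treated 2. XCL1 lost its call without untreated 2 (adjusted p 0.0532 to 0.0694 over these losses).

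Of 9 measured MHC class II genes, which present peptides to helper T cells, 5 fell, all 9 had a negative change, and the median log2 change was -1.33. SLA-DQA1 stood at -0.89, -1.68, -1.14, -0.80 and -0.90 in treated and 0.43, 0.60, 0.018, 0.16 and 0.33 in untreated piglets, with no overlap, and was 2.61-fold lower (log2 change -1.39, SE 0.18, adjusted p = 0.00975). SLA-DRA stood at -1.14, -2.37, -2.0, -0.60 and -0.87 against 0.41, 0.57, -0.16, 0.29 and 0.061, with treated piglets 2 and 3 lowest, and was 3.1-fold lower (adjusted p = 0.0347). The other called members were SLA-DQB1 (log2 change -1.33, adjusted p = 0.0204), SLA-DOA (-1.13, adjusted p = 0.0308) and SLA-DRB1 (-1.42, adjusted p = 0.0359). CD74, the invariant chain that guides class II molecules, changed by -1.36 and was not called (adjusted p = 0.111). SLA genes have close sequences and many alleles, so their probes may share signal.

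Without treated piglets 2 and 3 the class II median was -0.91 with 3 genes called. The median change within the 3 slides with both groups was smaller, from -1.10 to -0.57. It was -0.88 with the slide as a block and -1.32 with the scan day as a block. Of SLA-DQA1, SLA-DQB1, SLA-DOA, SLA-DRA and SLA-DRB1, SLA-DQA1 was called with the slide as a block, SLA-DQA1 with the scan day as a block and none with median centring (adjusted p 0.0510 to 0.199 where not called). SLA-DQB1 lost its call without untreated 1 or 2, and SLA-DRA and SLA-DRB1 without treated 2 or 3 or untreated 1 to 5. SLA-DOA lost its call without treated 2 or 3 or untreated 1, 2, 3 or 5 (adjusted p 0.0503 to 0.0960 over these losses). SLA-DQA1 was called with any 1 array left out. Of 15 genes of MHC class I and antigen processing, 2 were called lower and none higher, with a median of -0.092. B2M, the light chain of class I molecules, stood at -1.80, -2.17, -2.57, -1.98 and -1.39 against -1.45, -0.52, -0.67, -0.92 and -0.91, where untreated piglet 1 lay within the treated range (log2 change -1.09, adjusted p = 0.0400), and SLA-3, a class I heavy chain, changed by -0.67 (adjusted p = 0.0460). Neither was called without treated piglets 2 and 3 (adjusted p = 0.134 and 0.142), when the list median was 0.06. B2M and SLA-3 were not called with the slide as a block, the scan day as a block or median centring (adjusted p 0.0552 to 0.203 where not called). B2M lost its call without treated 2 to 4 or untreated 2 to 5, and SLA-3 without treated 2, 3 or 5 or untreated 1 to 5 (adjusted p 0.0610 to 0.111 over these losses).

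None of 27 interferon response genes was called by limma (10 by an unadjusted p under 0.05), although 22 had a negative change and the median was -0.37. The smallest p belonged to IFI30, a lysosomal reductase of antigen processing (log2 change -0.69, adjusted p = 0.0527), and IRF9, a factor of the interferon signal (-0.79, adjusted p = 0.0847). IFI30 was called without treated piglet 1 (adjusted p = 0.0348). None of 36 cytokines, chemokines and adhesion genes was called (9 by unadjusted p), and their median was 0.11 (0.013 without treated piglets 2 and 3). IL1B, a fever-inducing cytokine of macrophages, stood at 0.64, 2.58, 1.33, -0.40 and 0.24 in treated and -0.50, -0.49, -0.59, -0.81 and -0.57 in untreated piglets. All treated values lay above the untreated ones but they were spread out, with piglet 2 highest (log2 change 1.47, SE 0.46, adjusted p = 0.121). CCL21, which draws T cells and dendritic cells into lymphatics, changed by -0.99 (adjusted p = 0.0895) and was called without treated piglet 4 (adjusted p = 0.0251). Of 21 toll-like receptors and adaptors none was called (6 by unadjusted p), with TLR1 (-0.56, adjusted p = 0.0966) and TLR10 (-0.65, adjusted p = 0.106) at the smallest p.

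Among 14 macrophage and monocyte genes 1 was called, CD163, the haemoglobin scavenger receptor of macrophages, and 11 had a negative change (median -0.31). CD163 stood at 0.25, 0.25, -0.0058, 0.41 and 0.27 in treated and -1.06, -1.40, -1.63, -1.61 and -0.56 in untreated piglets. The treated values were tight and above all untreated values, 2.81-fold higher (log2 change 1.49, SE 0.19, adjusted p = 0.00975), and the call held with any 1 array left out. CD14, the co-receptor for lipopolysaccharide, changed by 0.82 and was not called (adjusted p = 0.142), with treated piglet 5 and untreated piglet 5 each the highest of its group and both on slide 7 with scan day 3. CD163 was called with the scan day as a block and not with the slide as a block or median centring (adjusted p 0.0511 to 0.263 where not called). CD14 was called with the slide (adjusted p = 0.0213) or the scan day as a block. The macrophage list's median was -0.075 without treated piglets 2 and 3.

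Of 10 granulocyte genes 1 was called lower and none higher. MMP9, a gelatinase of granulocytes, changed by 1.28 and was not called (adjusted p = 0.0613), though it was without treated piglet 1 or 3 (adjusted p 0.0302 to 0.0403) and without treated piglets 2 and 3 together (0.0457). No B or plasma cell gene of 7 was called (4 by unadjusted p). The IgG heavy chain gene LOC396781 stood at -3.13, -2.28, -1.85, -2.91 and -2.55 in treated and -0.98, -1.88, -1.06, 0.30 and 0.48 in untreated piglets, where untreated piglet 2 lay among the treated values. Its change of -1.92 missed the threshold by its brightest probe (adjusted p = 0.0556), while 10 of its 13 probes were called and all 13 were negative. It was called without untreated piglet 2 (adjusted p = 0.0482) and with the slide as a block (adjusted p = 0.0409), the scan day as a block or median centring. XBP1, a factor of plasma cells and of the unfolded protein response, changed by 0.39 (adjusted p = 0.0573), with 2 of its 6 probes of that sign, and turned negative with median centring. None of 5 mast cell and eosinophil genes was called (2 by unadjusted p), and MS4A2, a chain of the IgE receptor, was not well above background on any treated array and was on 4 of 5 untreated ones.

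Of 26 complement and acute phase genes 20 had a positive change, with a median of 0.47, and 1 was called. This was C9, which forms the pore of the membrane attack complex. C9 stood at 0.32, 1.57, 2.52, 1.32 and 0.22 in treated and -0.39, -0.97, -1.04, -0.50 and -0.68 in untreated piglets, with treated piglet 3 highest and treated piglets 1 and 5 lowest of their group, 3.76-fold higher (log2 change 1.91, SE 0.40, adjusted p = 0.0399). The change was 1.34 (adjusted p = 0.0632) without treated piglets 2 and 3. C7, another part of that complex, changed by 1.43 (adjusted p = 0.0645) and was called without treated piglet 1 (adjusted p = 0.0203). C9 lost its call without treated 2 or 4 or untreated 1 to 5 (adjusted p 0.0629 to 0.105). C9 was called with median centring and not with the slide as a block or the scan day as a block (adjusted p 0.0615 to 0.153 where not called).

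**Figure D2:**
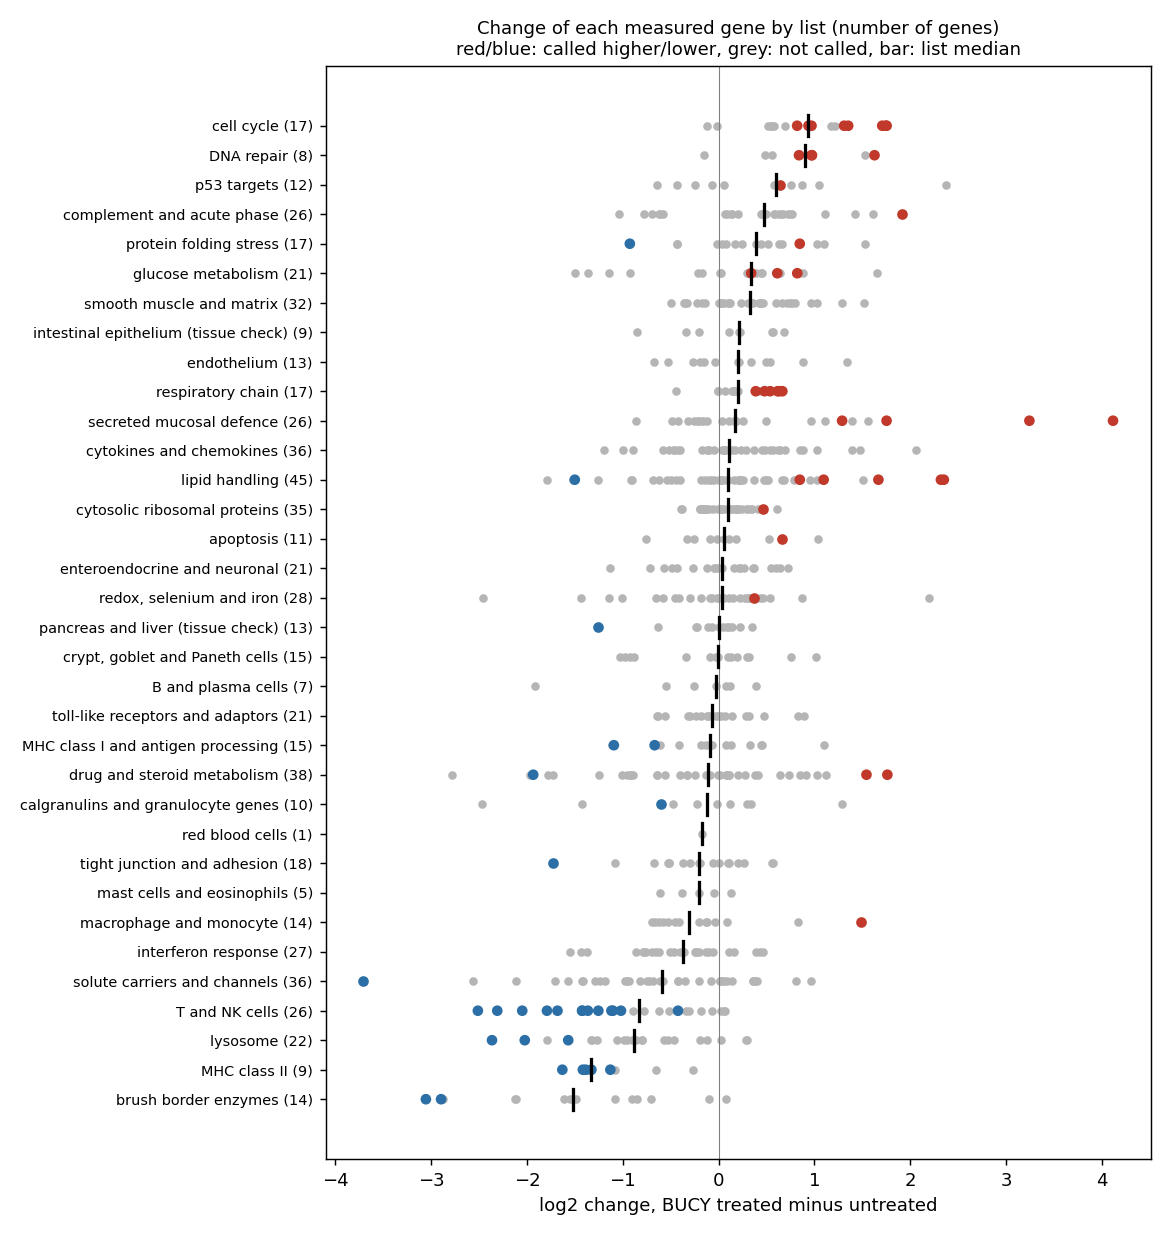
Log2 change, treated minus untreated (horizontal axis), of every measured gene of 34 lists, ordered by list median (black bar), with the number of measured genes in brackets. Red and blue points were called higher or lower and grey ones were not called: the T and NK cell list holds 13 blue points, and the cell cycle list 8 red ones.

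Of 17 measured cell cycle genes 8 rose and none fell, 15 had a positive change, and the median log2 change was 0.94. BIRC5 (survivin), which steers chromosomes in mitosis, stood at -0.39, 0.70, 0.69, -0.37 and 0.55 in treated and -1.50, -1.64, -1.67, -1.73 and -1.05 in untreated piglets. Treated piglets 1 and 4 were lower than the other 3, and all lay above the untreated piglets, 3.37-fold (log2 change 1.75, SE 0.25, adjusted p = 0.0131). CCNB1, the mitotic cyclin B1, stood at -0.46, 0.44, -0.33, -0.70 and 0.71 against -1.70, -1.92, -1.94, -2.26 and -1.25, again without overlap, 3.35-fold higher (adjusted p = 0.0193). Its kinase partner CDK1 was 2.55-fold higher (adjusted p = 0.0229), and CDC25C, the phosphatase that activates this pair, 3.26-fold higher (adjusted p = 0.0204). The other called members, named to complete the list, were PBK (1.31), H2AFZ (0.97), CCNB2 (0.94) and CKS1B (0.82), as log2 changes.

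The list's mean ratio was -0.23, 0.24, 0.15, -0.24 and 0.45 in treated and -0.72, -0.89, -1.01, -1.02 and -0.61 in untreated piglets. Treated piglet 5 was highest, and the groups did not overlap. Without treated piglets 2 and 3 the median was 0.82 and 2 genes were called. Of the 8 called members, CCNB1, CDK1 and H2AFZ were called with the slide as a block, all but CDC25C with the scan day as a block and CDC25C with median centring, and BIRC5 and CDC25C without treated piglets 2 and 3 (adjusted p 0.0518 to 0.516 where not called). CDC20, TOP2A and HMGB2 were called with the slide as a block and not without it, and the list median within slides ran from 0.68 to 1.11. BIRC5 was called with any 1 array left out. CCNB1, CDC25C and CDK1 lost their calls without treated 2 or untreated 2 or 3, and PBK without treated 2, 3 or 5 or untreated 1 to 5. H2AFZ lost its call without treated 2 or untreated 1 to 5, and CCNB2 without treated 2 or 4 or untreated 1 to 5. CKS1B lost its call without treated 2 or 5 or untreated 1 to 4 (adjusted p 0.0508 to 0.127 over these losses).

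Of 8 measured DNA repair genes, 4 were called higher and none lower, with a median of 0.90. BLM, a helicase that resolves recombination intermediates, stood at -0.23, 0.25, 0.40, -0.16 and 0.063 in treated and -0.66, -0.86, -0.92, -1.11 and -0.97 in untreated piglets and rose by 0.97 (SE 0.13, adjusted p = 0.0114). CHEK2, a checkpoint kinase activated by DNA breaks, stood at 0.087, 0.46, 0.54, -0.053 and 0.53 against -0.38, -0.59, -0.71, -0.90 and -0.73 and rose by 0.97 (SE 0.14, adjusted p = 0.0138). For both genes all treated piglets stood above all untreated ones. Without treated piglets 2 and 3 BLM was called and CHEK2 was not (adjusted p = 0.0514), and the list median was 0.55. Both were called with any 1 array left out. Of BLM and CHEK2, none was called with the slide as a block, both with the scan day as a block and BLM with median centring (adjusted p 0.0608 to 0.212 where not called).

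Of 12 genes known as p53 targets 1 was called, FDXR, a mitochondrial ferredoxin reductase (log2 change 0.64, adjusted p = 0.0498), and the median was 0.60 (0.25 without treated piglets 2 and 3). SFN (14-3-3 sigma), a G2 arrest factor of epithelial cells, stood at -1.08, 2.70, 0.93, -0.40 and -0.40 in treated and -1.97, -1.67, -2.42, -1.98 and -2.07 in untreated piglets. All treated values were above the untreated range and treated piglet 2 was far above the others, and the change of 2.37 (SE 0.60) was not called (adjusted p = 0.0731), though it was without treated piglet 1 (adjusted p = 0.0304) and, at 1.40 (adjusted p = 0.0288), without treated piglets 2 and 3 together. GDF15, a stress cytokine that p53 can induce and that was not on the list, stood at -0.40, 1.63, 0.30, -0.74 and 0.29 against -1.65, -2.12, -1.55, -2.15 and -2.03 and was 4.33-fold higher (log2 change 2.12, SE 0.38, adjusted p = 0.0249), with treated piglet 2 highest. Of 11 apoptosis genes 1 was called, CYCS (cytochrome c; 0.67, adjusted p = 0.0321). FDXR lost its call without treated 2, 3 or 5 or untreated 1 to 5, and GDF15 without treated 5 or untreated 1 to 5. CYCS lost its call without treated 2, 4 or 5 or untreated 1, 2, 3 or 5 (adjusted p 0.0525 to 0.107 over these losses). Of FDXR, GDF15 and CYCS, none was called with the slide as a block, GDF15 with the scan day as a block and none with median centring, and GDF15 and CYCS without treated piglets 2 and 3 (adjusted p 0.0697 to 0.847 where not called).

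**Figure D3:**
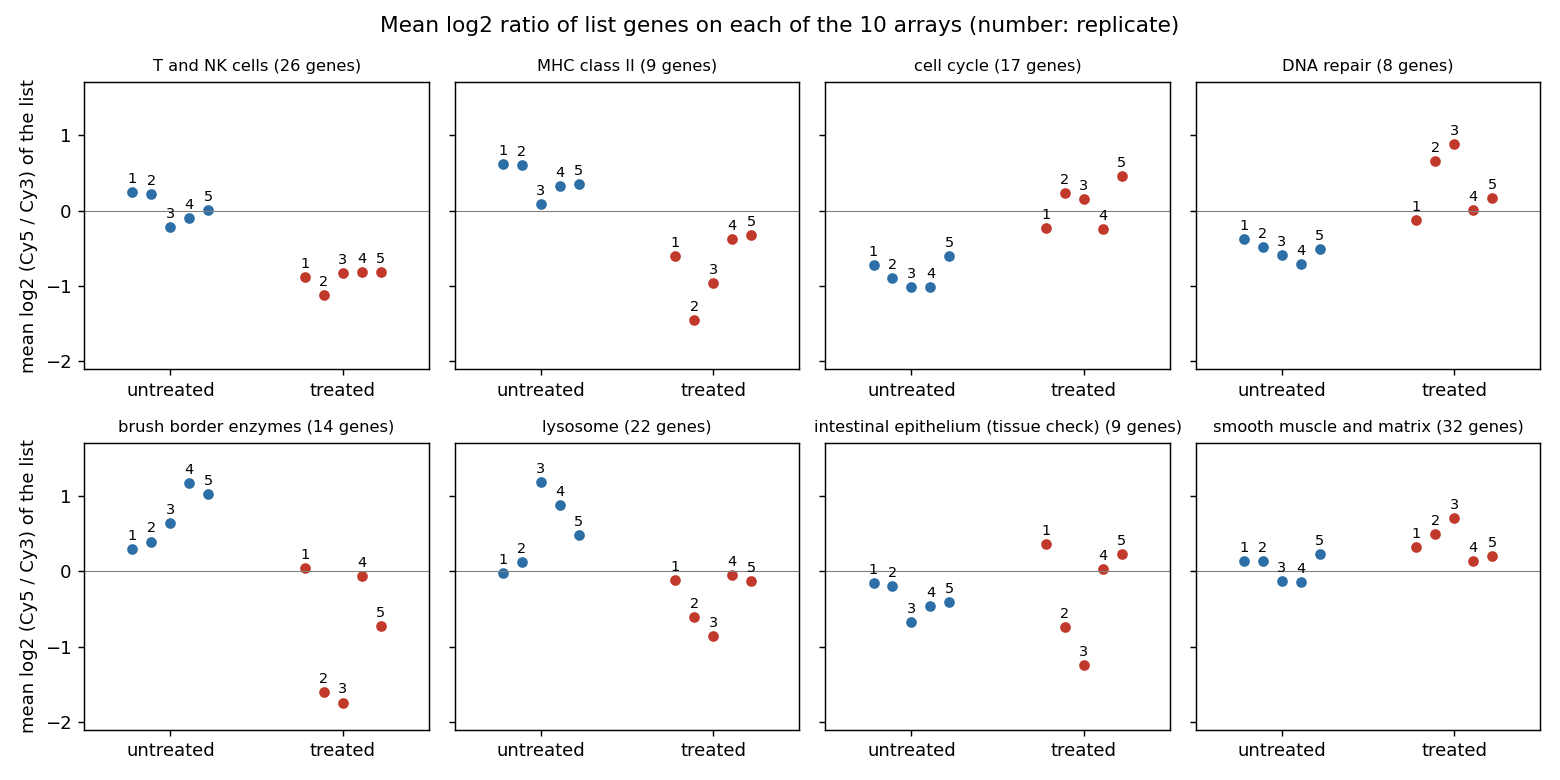
Mean log2 ratio of piglet to pool over the genes of 8 lists (vertical axis) on each of the 10 arrays, numbered by replicate, blue untreated and red treated. The groups are separate for T and NK cells, MHC class II, cell cycle, DNA repair, brush border enzymes and, narrowly, lysosome. Treated piglets 2 and 3 lie lowest for brush border enzymes, lysosome and intestinal epithelium.

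Brush border enzymes had the lowest list median, -1.52, with 13 of 14 negative and 2 called lower. FOLH1B, the folate hydrolase that trims dietary folates, stood at -0.27, -2.82, -1.76, -1.20 and -0.99 in treated and 0.22, 1.24, 2.07, 2.89 and 1.81 in untreated piglets, 8.30-fold lower (log2 change -3.05, SE 0.55, adjusted p = 0.0248). Treated piglet 2 was lowest and untreated piglet 1 came near the treated range. DPEP1, a membrane dipeptidase, stood at -1.45, -2.04, -1.97, 0.44 and -1.57 against 0.37, 0.51, 1.81, 2.17 and 3.03, where treated piglet 4 overlapped the untreated piglets, 7.44-fold lower (adjusted p = 0.0400). The list's mean ratio in treated piglets 1 to 5 was 0.042, -1.60, -1.74, -0.059 and -0.72, with piglets 2 and 3 far below the others, and 0.29, 0.39, 0.64, 1.16 and 1.03 in untreated ones. Without these 2 piglets the list median was -0.70 and neither FOLH1B (adjusted p = 0.0809) nor DPEP1 (adjusted p = 0.170) was called, while RBP2, a retinol carrier of enterocytes, was called higher at a log2 change of 1.04 (adjusted p = 0.0274). Of FOLH1B and DPEP1, FOLH1B was called with the slide as a block, both with the scan day as a block and none with median centring (adjusted p 0.0566 to 0.0688 where not called). ANPEP, the aminopeptidase N of enterocytes, changed by -0.86 and was not called (adjusted p = 0.167). FOLH1B lost its call without treated 2 or untreated 2, 3 or 5, and DPEP1 without treated 2, 3 or 5 or untreated 2 to 5 (adjusted p 0.0532 to 0.105 over these losses).

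Of 36 solute carriers and channels 1 was called, AQP10, an intestinal channel for water and glycerol. AQP10 stood at -0.47, -4.33, -3.97, -1.23 and -1.38 in treated and 1.69, 1.71, 2.40, 1.0 and 0.34 in untreated piglets, 13.1-fold lower (log2 change -3.71, SE 0.76, adjusted p = 0.0381). This was the largest decrease of a named gene, and the size depended on treated piglets 2 and 3: without them the change was -2.46 (adjusted p = 0.0434). SLC1A1, a carrier of acidic amino acids, changed by -2.56 and was not called (adjusted p = 0.0761), with treated piglets 1 and 4 near the untreated level, and it was called without treated piglet 1 (adjusted p = 0.0188). The median of the carriers was -0.59 with all arrays and -0.15 without treated piglets 2 and 3. Of 18 tight junction and adhesion genes CLDN15, a claudin that forms sodium pores between enterocytes, was called. It stood at 0.11, -1.44, -1.33, -0.10 and -0.62 against 1.09, 0.85, 1.11, 1.16 and 1.05, 3.31-fold lower (adjusted p = 0.0197), and at -1.25 (adjusted p = 0.0201) without treated piglets 2 and 3. CLDN10 changed by -1.08 (adjusted p = 0.0775), and was called without untreated piglet 5 (adjusted p = 0.0248). AQP10 lost its call without treated 2, 3 or 5 or untreated 1 to 5, and CLDN15 without untreated 2 or 3 (adjusted p 0.0527 to 0.101 over these losses). AQP10 and CLDN15 were not called with the slide as a block, the scan day as a block or median centring (adjusted p 0.0511 to 0.151 where not called).

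Of 22 lysosomal genes 19 had a negative change and 3 were called lower, with a median of -0.88. The list's mean ratio was -0.11, -0.60, -0.86, -0.043 and -0.12 in treated piglets 1 to 5 and -0.024, 0.12, 1.19, 0.88 and 0.48 in untreated ones. Treated piglets 2 and 3 lay below the other 3 treated animals. NEU1, the lysosomal sialidase, stood at -1.05, -1.72, -1.79, -1.36 and -0.96 in treated and -0.27, -0.088, 2.33, 0.76 and 0.49 in untreated piglets, where untreated piglet 3 was highest, 4.06-fold lower (adjusted p = 0.0443), and ARSA, a sulfatase of sulfatide breakdown, was 2.97-fold lower (adjusted p = 0.0376). Without treated piglets 2 and 3 NEU1 and ARSA were not called (adjusted p = 0.187 and 0.158) and the median was -0.63. Of NEU1 and ARSA, both were called with the slide as a block, none with the scan day as a block and none with median centring (adjusted p 0.0812 to 0.132 where not called). NEU1 lost its call without treated 2 to 5 or untreated 1, 2, 4 or 5, and ARSA without treated 2, 3 or 5 or untreated 2 to 5 (adjusted p 0.0524 to 0.114 over these losses).

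None of 9 markers of intestinal epithelium was called (3 by unadjusted p) and their median was 0.22. The median was 0.55 without treated piglets 2 and 3, when FABP1, a fatty acid carrier of enterocytes, was called higher at a log2 change of 1.68 (adjusted p = 0.0244). Their mean ratio was 0.36, -0.73, -1.24, 0.032 and 0.23 in treated piglets 1 to 5 and -0.16, -0.19, -0.67, -0.46 and -0.40 in untreated piglets, so treated piglets 2 and 3 were below and the other 3 treated piglets above all untreated ones. In the same treated piglets the mean ratio of 32 smooth muscle and matrix genes was 0.32, 0.50, 0.70, 0.14 and 0.21, against 0.14, 0.13, -0.13, -0.14 and 0.23 in untreated ones, with piglets 2 and 3 highest. The part of this shift in the enzyme, carrier and lysosome results was not tested, beyond the values without those 2 animals. None of 15 crypt, goblet and Paneth cell genes was called (6 by unadjusted p, median -0.0085). GATA6, a factor of proliferating epithelium, changed by -0.92 (adjusted p = 0.0680) and KLF4, a goblet cell factor, by -0.89 (adjusted p = 0.0807), and both were called without treated piglet 1 (adjusted p = 0.0460 and 0.0356). SPINK4, a goblet cell peptide, was called lower without treated piglets 2 and 3 (-1.37 (adjusted p = 0.0432)).

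Genes of lipid handling moved both ways: of 45 measured, 5 were called higher and 1 lower, with a median of 0.10 (0.29 without treated piglets 2 and 3). FABP3, a cytosolic carrier of fatty acids, stood at -1.18, 0.83, 0.62, -0.93 and 0.25 in treated and -2.09, -2.30, -3.08, -2.44 and -2.25 in untreated piglets, 5.10-fold higher (log2 change 2.35, SE 0.40, adjusted p = 0.0211), lowest in treated piglets 1 and 4. SCD, the desaturase that makes oleate, stood at -0.59, 0.88, 0.004, -0.16 and -0.63 against -1.88, -1.75, -2.69, -2.88 and -2.90, 4.99-fold higher (adjusted p = 0.0126), and all 9 of its probes were called. LPL, the lipase that frees fatty acids from lipoproteins, stood at -0.99, 0.15, -0.80, -1.08 and -1.14 against -2.42, -2.46, -2.43, -2.45 and -2.45. The untreated piglets were nearly equal (SD 0.017) and all below the treated ones, 3.18-fold (log2 change 1.67, SE 0.22, adjusted p = 0.00975).

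FASN, the fatty acid synthase, rose 2.14-fold (adjusted p = 0.0138), and CPT1A, which admits fatty acids to mitochondria, by 0.85 on the log2 scale (adjusted p = 0.0296). The called decrease was PPARGC1A, a coactivator of mitochondrial genes (-1.50, adjusted p = 0.0285); CPT1A and PPARGC1A are named to complete the list. The apolipoproteins APOA1 (-1.79, adjusted p = 0.0784) and APOM (-1.52, adjusted p = 0.0505), picked after their values were seen, were not called. SCD, LPL and FASN were called with any 1 array left out. FABP3 lost its call without untreated 2 or 3, and CPT1A without treated 2 or untreated 1 to 5. PPARGC1A lost its call without treated 2, 3 or 5 or untreated 1, 2, 4 or 5 (adjusted p 0.0542 to 0.0807 over these losses). Of FABP3, SCD, LPL, FASN, CPT1A and PPARGC1A, SCD, LPL and FASN were called with the slide as a block, all but FABP3 and CPT1A with the scan day as a block and none with median centring, and SCD and LPL without treated piglets 2 and 3 (adjusted p 0.0510 to 0.626 where not called).

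Of 38 genes of drug and steroid metabolism 2 were called higher and 1 lower. SULT2A1, a sulfotransferase of steroids and bile acids, stood at -0.73, -0.26, 1.20, -0.0017 and 1.30 in treated and -1.57, -1.68, -1.54, -1.13 and -1.38 in untreated piglets, 3.39-fold higher (log2 change 1.76, SE 0.37, adjusted p = 0.0411), with a wide spread among the treated animals. FMO1, a flavin monooxygenase, was 2.91-fold higher (adjusted p = 0.0176), at 0.80, 1.97, 1.21, 1.06 and 0.74 against -0.88, -0.48, -0.19, -0.45 and 0.087. CYP2B22, a cytochrome P450 of the family that activates cyclophosphamide, stood at -0.89, -0.79, -0.74, 0.21 and -0.079 against 1.45, 1.41, 0.75, 2.31 and 1.46. Every treated piglet was below every untreated one, 3.82-fold (log2 change -1.93, SE 0.30, adjusted p = 0.0156). CYP2B22 and SULT2A1 were not called without treated piglets 2 and 3 (adjusted p = 0.0649 and 0.103), whereas UGT1A6, SULT1A3 and GSTO1 of the same list were called higher. Genes named as called under an alternative alone were picked after their values were seen. CYP2B22 was called with any 1 array left out. SULT2A1 lost its call without treated 2 to 5 or untreated 1 to 5, and FMO1 without untreated 2 (adjusted p 0.0540 to 0.109 over these losses). Of SULT2A1, FMO1 and CYP2B22, CYP2B22 was called with the slide as a block, FMO1 and CYP2B22 with the scan day as a block and CYP2B22 with median centring (adjusted p 0.0510 to 0.192 where not called).

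Of 17 respiratory chain genes 6 were called higher and none lower (median 0.20, and 0.36 without treated piglets 2 and 3): ATP5A1 (0.63, adjusted p = 0.0176), ATP5G1 (0.54), COX7A2 (0.62), COX5B (0.39), NDUFV2 (0.48) and CYCS, subunits or carriers of the chain, as log2 changes. With median centring in place of the intensity-dependent correction the changes of ATP5A1, ATP5G1, COX7A2, COX5B and NDUFV2 turned negative, to -0.37 for COX5B and between -0.14 and -0.068 for the others, so the direction of these genes depends on the scaling, and 10 of 12 probes of CYCS and 12 of 14 of ATP5A1 had the sign given. Of ATP5A1, ATP5G1, COX7A2, COX5B, NDUFV2 and CYCS, none was called with the slide as a block, all but COX5B and CYCS with the scan day as a block and none with median centring, and ATP5A1 and CYCS without treated piglets 2 and 3 (adjusted p 0.0570 to 0.910 where not called). Of 21 glucose metabolism genes 3 were called higher, GAPDH (0.82, adjusted p = 0.0152) and GPI (0.61, adjusted p = 0.0296) of glycolysis and PDHB of the pyruvate dehydrogenase (0.34, adjusted p = 0.0315), the last of which also turned negative with median centring. GAPDH stood at 0.28, 0.37, 0.28, -0.17 and 0.17 in treated and -0.69, -0.91, -0.50, -0.68 and -0.39 in untreated piglets, and GPI had no value for treated piglet 2. Of GAPDH, GPI and PDHB, none was called with the slide as a block, GAPDH with the scan day as a block and none with median centring, and GPI without treated piglets 2 and 3 (adjusted p 0.0570 to 0.877 where not called).

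Of 28 redox, selenium and iron genes GPX1, a selenium peroxidase, was called (0.37, adjusted p = 0.0364), and of 35 ribosomal protein genes RPS10 (0.46, adjusted p = 0.0365), and both turned negative with median centring. GPX4, which spares membrane lipids from peroxidation, changed by 0.54 (adjusted p = 0.0513) and was called without treated piglet 3 (adjusted p = 0.0270). RPL27 changed by 0.46 (adjusted p = 0.0639), was called without treated piglet 1 or 4 (adjusted p 0.0405 to 0.0460), and also turned negative with median centring. Of 17 genes of protein folding stress PDIA4, a disulfide isomerase of the endoplasmic reticulum, rose (0.85, adjusted p = 0.0214) and DDIT3, a factor of the unfolded protein response, fell (-0.93, adjusted p = 0.0423). Of GPX1, RPS10, PDIA4 and DDIT3, none was called with the slide as a block, PDIA4 with the scan day as a block and none with median centring, and none without treated piglets 2 and 3 (adjusted p 0.0549 to 0.644 where not called). GAPDH was called with any 1 array left out. ATP5A1 lost its call without untreated 2, and ATP5G1 without treated 2, 4 or 5 or untreated 1 to 5. COX7A2 lost its call without treated 2 or 5 or untreated 2 or 3, and COX5B without treated 2, 4 or 5 or untreated 1, 2, 4 or 5. NDUFV2 lost its call without treated 2 or 5 or untreated 1 to 5, and GPI without treated 5 or untreated 1 to 5. PDHB lost its call without treated 2, 4 or 5 or untreated 1, 2, 3 or 5, and GPX1 without treated 2, 3 or 5 or untreated 1 to 5. RPS10 lost its call without treated 2 or 3 or untreated 1 to 5, and PDIA4 without untreated 2, 3 or 5. DDIT3 lost its call without treated 2, 3 or 5 or untreated 2 to 5 (adjusted p 0.0503 to 0.119 over these losses).

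No gene was called among 32 of smooth muscle and matrix, 13 of endothelium or 21 of enteroendocrine cells and neurons (10, 4 and 8 by unadjusted p), and the 1 globin gene measured, HBE1, was not called (adjusted p = 0.219). DES, the muscle filament desmin, changed by 0.96 (adjusted p = 0.0678), PECAM1 of endothelium by 1.34 (adjusted p = 0.123), PROX1 of lymphatic endothelium by -0.67 (adjusted p = 0.0605), and the hormones SST and GHRL by -0.43 and -1.14 (adjusted p = 0.0628 and 0.0926). PECAM1 was called without treated piglet 1 (adjusted p = 0.0496) and SST without treated piglet 4 (adjusted p = 0.0389). Of 13 pancreas and liver genes, included to check the tissue, 1 was called: AMY2, the gene of pancreatic amylase, stood at -0.65, -0.77, -1.12, -0.40 and -0.50 in treated and 0.17, 0.70, 0.72, 0.88 and 0.40 in untreated piglets. It was 2.40-fold lower (log2 change -1.26, SE 0.17, adjusted p = 0.00975) without overlap, 22 of its 23 probes were called, and it was called with any 1 array left out. AMY2 was called with the scan day as a block and not with the slide as a block or median centring (adjusted p 0.0816 to 0.0932 where not called). The list's median was near zero, and ALB (0.14), PNLIP (0.11) and CPA1 (0.22), markers of liver and pancreas picked after their values were seen, were not called.

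The remaining genes among the largest decreases belonged to no list. MMP20, a matrix metalloproteinase known from enamel, stood at -0.55, -1.58, -1.18, -1.39 and -1.71 in treated and -0.44, 1.16, 2.26, 2.19 and 0.98 in untreated piglets, 5.69-fold lower (adjusted p = 0.0296), and was well above background on 3 of 5 treated arrays. SLC35F5, a member of a nucleotide-sugar carrier family, stood at 0.42, -1.97, -2.27, -0.21 and -0.53 against 0.90, 1.21, 1.91, 1.17 and 1.25, 4.60-fold lower (adjusted p = 0.0466), with treated piglets 2 and 3 lowest. Neither was called without these 2 animals (adjusted p = 0.112 and 0.0532). MMP20 lost its call without treated 2, 3 or 5 or untreated 2 to 5, and SLC35F5 without treated 2, 3 or 5 or untreated 1 to 5 (adjusted p 0.0508 to 0.115 over these losses). Of MMP20 and SLC35F5, MMP20 was called with the slide as a block, none with the scan day as a block and none with median centring (adjusted p 0.0583 to 0.162 where not called).

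**Figure D4:**
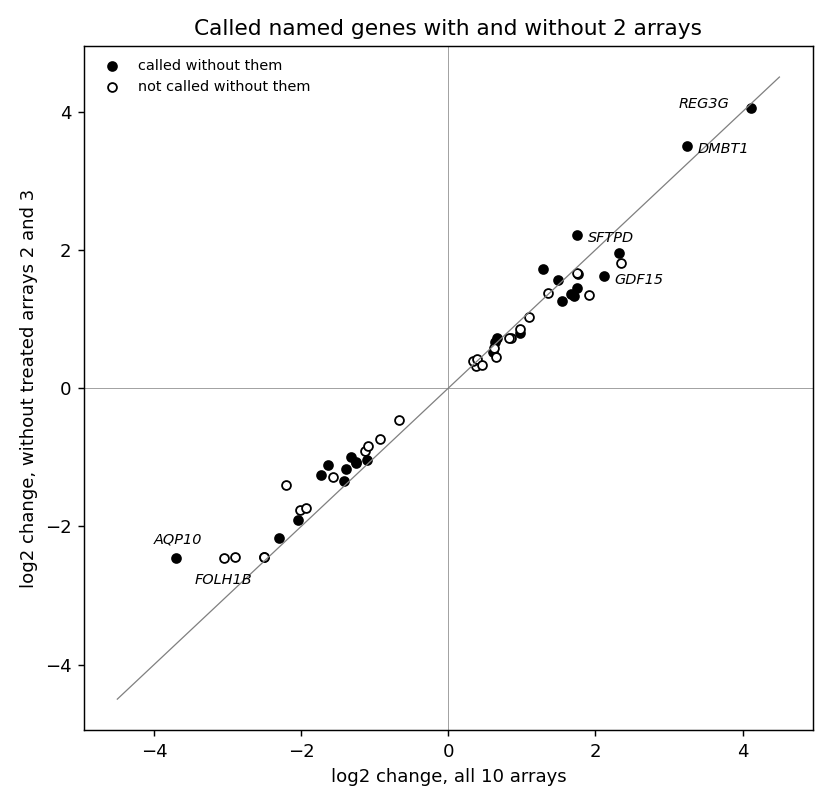
Log2 change of called genes named by the rule, with all 10 arrays (horizontal axis) and without treated piglets 2 and 3 (vertical axis); the diagonal marks equal values. Filled points were still called without them, and open ones were not: AQP10 and FOLH1B lie nearer to zero without them, and SFTPD and DMBT1 farther from it.

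The DOX experiment allows the BUCY effect to be set against that of another drug, with separate untreated piglets. The difference between the effects was called for 1867 of 43603 probes (4.28%). DMBT1 was at 0.47 in DOX treated and -0.15 in DOX untreated piglets (means of 6), against 0.64 and -2.60 in the BUCY experiment (means of 5), so the effects differed by 2.63 (SE 0.36, adjusted p = 0.000800). The treated means of the experiments were close, and the untreated BUCY piglets were the lowest of the 4 groups. For BIRC5 the DOX means were 0.10 treated and 0.28 untreated, against 0.24 and -1.52 under BUCY (difference 1.94, adjusted p = 0.000835). For CCNB1 they were -0.0066 and 0.60, against -0.067 and -1.81 (difference 2.35, adjusted p = 0.000835). Again the untreated BUCY piglets stood lowest.

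CYP2B22 showed the reverse: it was at -1.16 and -1.21 in DOX treated and untreated piglets, and at -0.46 and 1.48 under BUCY, with the untreated BUCY piglets highest (difference -1.98, adjusted p = 0.00131). CYCS (1.58, adjusted p = 0.000800) and PDIA4 (1.29, adjusted p = 0.00127) also differed. For CYCS the DOX untreated piglets stood highest, at 0.17 to 0.57, above the DOX treated ones at -0.89 to 0.15. REG3G rose under BUCY from an untreated mean of -2.45, close to that of the DOX experiment (-2.67), and its difference between the drugs was not called (1.73, adjusted p = 0.136). SFTPD's was not called either (0.69, adjusted p = 0.462). GZMA was at -0.58 and 0.22 in DOX treated and untreated piglets, with nearly the same untreated level as under BUCY (0.23), and the BUCY effect was lower by a called margin (-1.71, adjusted p = 0.0407). Over the 1012 probes called for BUCY, the mean of the DOX untreated piglets lay nearer to the BUCY treated than to the BUCY untreated mean in 674 (66.6%), against 45.9% of all probes. These probes were chosen by the same BUCY values, and several can belong to 1 gene, so this share is a description and not a test. The experiment and the untreated animals that belong to it cannot be told apart in these differences.

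**Figure D5:**
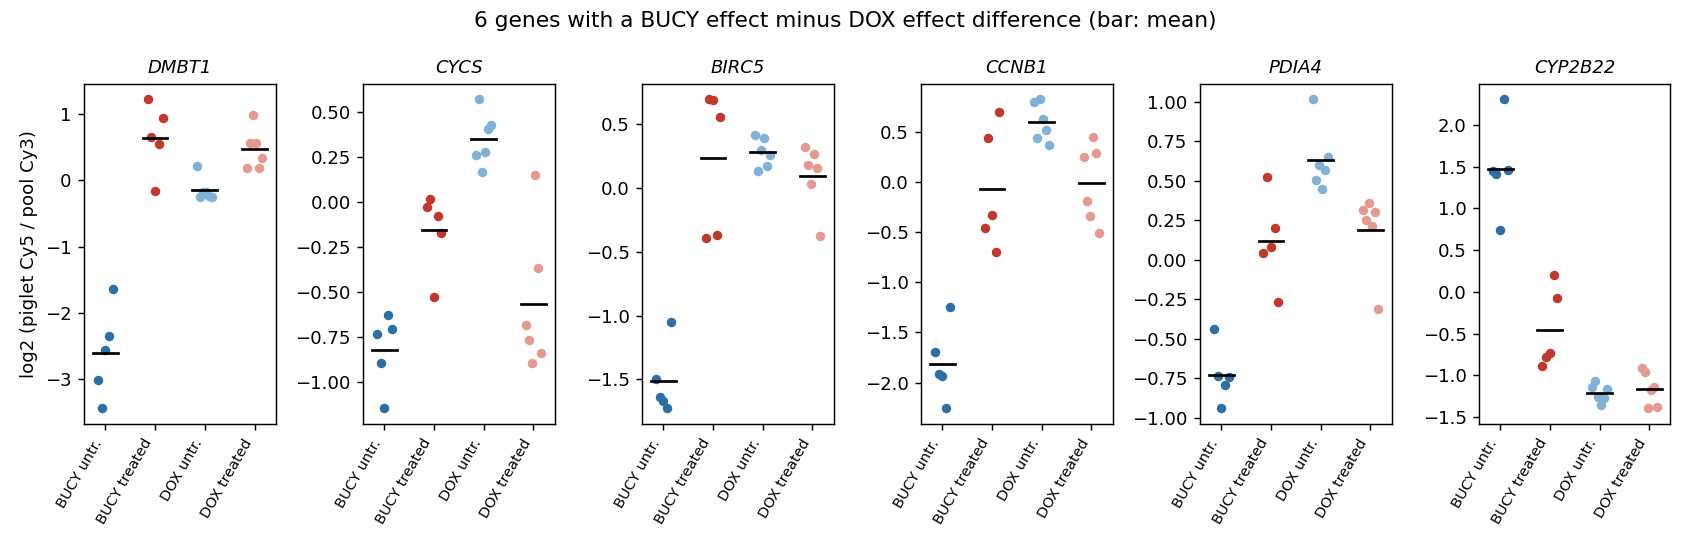
Log2 ratio of piglet to pool (vertical axis, scaled for each gene) in untreated and treated piglets of the BUCY (n = 5 and 5) and DOX (n = 6 and 6) experiments, for the 6 named genes with the smallest p for the difference of the effects. Points are piglets and bars means: the mean of the untreated BUCY piglets is lowest for DMBT1, CYCS, BIRC5, CCNB1 and PDIA4 and highest for CYP2B22, and for CYCS their values overlap those of the DOX treated piglets.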

How the data were processed

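RNA from the small intestine of 22 piglets was hybridised to dual-colour Agilent pig arrays, of which the 10 of the BUCY experiment were fitted here. The values fitted are the log2 ratios of Cy5 to Cy3 in the table deposited by the authors, made with Agilent Feature Extraction and limma per the submitters' processing notes; no source used here gives the settings or genome build. Against normexp-, loess- and quantile-normalised scanner signals (Feature Extraction 10.7.3.1 per the file headers) the table gave r from 0.995 to 1.00 and slopes from 0.983 to 1.00, so it holds log2 Cy5 over Cy3, while the assignment of the dyes rests on the labels, and array medians were 0.0015 to 0.018. The scanner intensity columns and the log10 ratios, also deposited by the authors, served as alternatives and for background flags. No spot of a non-control probe was flagged as saturated in Cy5, and Cy3 was not checked for saturation. Control spots were left out, and spots of a probe were averaged.

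Treated and untreated means were compared for 43603 probes with limma 3.58.1 in R 4.3.3 (lmFit, eBayes, two-sided, 8 residual degrees of freedom), with Benjamini-Hochberg adjustment over all probes and a threshold of 0.05. Missing values (72 in 69 probes) were not filled. The difference from the DOX effect came from a fit of all 22 arrays. Accessions were joined to RefSeq genes of Sscrofa11.1, which named 6700 probes (15.4%) and 3029 genes; each gene is given by its brightest probe. Of 1227 distinct names in 34 lists, 644 genes were measured. The rule named DMBT1, SFTPD, the 10 largest called increases and decreases without overlap, up to 4 called genes of each list (or its 2 of smallest p), and 6 genes by their BUCY minus DOX difference. Members and lists were chosen with earlier results of these data known. Deposited replicates carry no shared numbers that pair piglets. The limma script was tested on simulated data. Python 3.11.15 with matplotlib 3.10.9 drew the figures.

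Alternatives were scanner-based normalisations, filters on dim probes, slide, scan day or title suffix as blocks, array weights, another variance model, all 22 arrays, and arrays left out. Treated piglet 2 and untreated piglets 1 and 2 lay on slides without the other group, so the slide block takes these 3 out of the comparison. A few genes of the rule are not reported here. No sequences are shown and promoter motifs were not searched.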

Additional observations from a re-analysis of the deposited data

Results flagged for a closer look

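Among the named genes, a single piglet lay far from the other 4 of its group by Dixon's test in 9 of 196 groups of values, and chance alone flags about 1 in 20, which is close to that share. Treated piglet 2 was low for CCL5 (-2.91, nearest -2.16), CD3G (-2.63, nearest -1.95) and CD2 (-1.71, nearest -1.34), and high for LPL (0.15, nearest -0.80). Treated piglet 4 was high for DPEP1 (0.44, nearest -1.45), and is the piglet that overlaps the untreated range there. Treated piglet 5 (1.45) and untreated piglet 5 (0.48) were both high for CD14, and untreated piglet 5 was high for DES (0.20). Untreated piglet 4 was low for CDK1 (-2.15).

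The effects of BUCY and DOX differed, by a test of the difference in limma, for DMBT1 (log2 difference 2.63), CCNB1 (2.35), BIRC5 (1.94), CYCS (1.58), PDIA4 (1.29) and CYP2B22 (-1.98). These 6 had the smallest p of the 87 genes named by the rule, of which 41 had a called difference. Those genes were named mostly by their BUCY change, which enters the difference. In each of the 6 the untreated piglets of the BUCY experiment had the lowest or the highest of the 4 group means. For CYCS the DOX untreated piglets lay at the other end, and its change under DOX enters the difference too.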

How the results depend on the processing

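The total of 1012 called probes became 645 with the scanner software's log ratio (302 lower), 577 with the title suffix as a block (267 higher, 310 lower), 1623 with array weights (761 and 862) and 5692 with all 22 arrays in the fit (2748 and 2944). Median centring in place of loess gave 153 (51 and 102), the slide as a block 336 (127 and 209), the scan day as a block 513 (293 and 220), and leaving out treated piglets 2 and 3 together 408 (218 and 190). With 1 array left out the count ran from 239 to 2617, from 103 to 1242 for higher and from 136 to 1375 for lower probes. The 1867 probes that differed between BUCY and DOX became 112 with median centring, 1143 without treated piglets 2 and 3, and 1261 to 3226 with 1 array left out. Scanner signals with loess, filters on dim probes, the slide as a random block and the other variance model, and quantile normalisation of both channels (added after seeing the data), stayed within 1.5 times; quantile scaling of the average intensity leaves ratios as they are. With median centring the log2 change reversed for XBP1 (-0.24), GPX1 (-0.22), PDHB (-0.18), ATP5A1 (-0.068), COX7A2 (-0.071), COX5B (-0.37), NDUFV2 (-0.075), ATP5G1 (-0.14), RPS10 (-0.19), RPL27 (-0.19) and KRT8 (-0.20). The cause was not tested, and fewer arrays and added terms also leave fewer residual degrees of freedom. No paired analysis was possible because replicate numbers follow array order and pair no piglets. Promoter motifs were not run. The number of arrays and, for MMP20, CD2, GZMA, MS4A2 and HBE1, signals near background limit the precision.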
